A study of Mus musculus with 12 samples.

Results

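The genes described here are 57 genes that copy DNA in S phase or carry a cell through mitosis, followed in the livers of mice fed the fibrate drug bezafibrate. They were taken as a list of gene symbols, and each was represented by its brightest probe set (highest 12-array mean) among those to which the platform assigns that symbol alone. Of the 57 genes, 56 could be measured in this way, out of 18193 genes in all. Ccnb1, which encodes cyclin B1, had only probe sets with several symbols and was not analysed here. Of the 57 genes, 24 belong to DNA replication and 26 to mitosis, of which 25 were measured. The other 7 are 5 regulators of the passage from G1 to S phase and 2 cohesion factors.

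The livers came from 12 male mice aged 6 to 12 weeks, 3 in each of 4 groups, and were taken at ZT14, 14 h after lights on, under a cycle of 12 h light and 12 h dark. One group was untreated wild-type mice. The other groups received 0.5% (w/w) bezafibrate in the diet for 5 days and were wild-type mice, PPARα-null mice and Clk/Clk mice, which carry the mutant Clk allele of Clock on both chromosomes. Wild-type and Clk/Clk mice had the Jcl:ICR background, while the null mice were 129S4SvJae-PPARalphatm1Gonz/J mice crossed with Jcl:ICR. No mutant was left untreated, so the effect of a genotype and a changed response to the drug cannot be told apart in the mutants, and in the null mice strain cannot be told apart from genotype either. The study asks which genes under PPARα in liver also need CLOCK.

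Most cells of the adult liver rest outside the cell cycle. Before S phase, E2F transcription factors are freed from the retinoblastoma family. E2F proteins then switch on the genes that license origins, build the replication fork and supply nucleotides. Genes of mitosis are switched on later, and many are kept silent in resting cells by a complex that binds a short promoter element, the cell cycle genes homology region (CHR), often beside CCAAT boxes. PPARα is the nuclear receptor that fibrates activate, and its activation is a known stimulus of hepatocyte division in rodents. CLOCK, with its partner BMAL1, drives the daily rhythm of transcription from E-box elements.

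The deposited values are log2 signals per probe set, and a difference of 1 on this scale is a doubling. Within a group, pairs of arrays correlated at 0.993 to 0.996 over probe sets, which are not independent replicates, and between groups at 0.969 to 0.99. The distance between 3′ and 5′ control probes for Gapdh, a measure of RNA integrity, lay between -0.34 and -0.14 on the 12 arrays. The same distance for Actb was 1.10 to 1.2 in null mice, below the 1.22 to 1.37 of treated and the 1.31 to 1.52 of untreated wild type, and 1.26 to 1.45 in Clk/Clk mice. Its part in the results on null mice was not tested. Ppara signal persisted in the null mice at a mean of 9.88 (SD 0.16, n = 3) against 10.78 (SD 0.23, n = 3) in treated wild type, and Clock read 9.25 (SD 0.16, n = 3) in Clk/Clk mice against 8.17 (SD 0.28, n = 3). No source used here places these probe sets against the altered exons, so they check neither genotype. The livers were whole tissue, with mean log2 levels of 13.47 to 14.16 over 8 hepatocyte markers across the 12 mice. In bulk tissue fewer cells of a type and less RNA per cell cannot be told apart.

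Signal was weak for some of the genes. On all 12 arrays 29 of the 56 lay at or above the 40th percentile of the array, a level of 4.87 to 4.93, and 6 (Tyms, Aurkb, Melk, Cenpe, Bub1 and Kif11) reached it on at most 2 arrays. In all 3 untreated mice 18 of the 56 lay under that level, and 13 of these were called with the drug (Cdc6, Dtl, Cdca5, Esco2, Aurka, Aurkb, Birc5, Bub1, Zwilch, Melk, Nusap1, Shcbp1 and Ect2). Their log2 differences are set against a signal not shown to be above background. The size of these differences, which medians over the 56 genes include, is therefore uncertain. The test used all 18193 genes with no filter on level, so that no gene entered through the group in which it was high. A gene was called when its limma p, adjusted over all genes by the Benjamini-Hochberg method, was under 0.05 and its groups differed at least 1.5-fold.

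Promoter windows from RefSeq (build GRCm38.p6, 250 bases before to 50 bases after an annotated start) were found for 44 of the 57 genes, 20 of replication and 19 of mitosis. Aurkb, Ccna2, Ccne2, Cdca2, Esco2, Gins1, Gins2, Kif20a, Pole, Shcbp1, Tipin, Tpx2 and Zwilch were not matched. Of the 44 genes, 6 had several windows, and the shares below count windows, not genes. The windows were searched on both strands for E2F motifs (TTTCCCGC, TTTGGCGC, TTTCGCGC or TTTGCCGC), CHR elements (TTTGAA, or else the variant TTCGAA), boxes with the letters CCAAT and the E-box CACGTG. An E2F motif was present in 9 of 26 replication windows (34.6%), in 1 of 21 mitosis windows (4.76%) and in 2.26% of the 32851 windows of all genes. A CHR element showed the opposite split, with 16 of 21 mitosis windows (76.2%), 4 of 26 replication windows (15.4%) and 19.2% of all windows. In 15 of these 16 mitosis windows a CHR element began within 50 bases of the start, which was the case for 5.31% of all windows. Ect2 and Prc1 had overlapping windows, so the same CHR elements of these genes were counted more than once. CCAAT boxes lay in 85.7% of mitosis windows, 46.2% of replication windows and 37.4% of all windows. The E-box lay in 3 replication windows (11.5%), in no mitosis window and in 7.15% of all windows. These are matches of letters and not measured binding.

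Windows of 7 genes are shown 5′ to 3′ because they display both promoter types next to the differences reported below: 3 replication genes with an E2F motif, the E2F family member E2f8, and 3 mitosis genes with CHR elements and CCAAT boxes. Capitals mark E2F motifs, CHR elements and CCAAT boxes, on either strand. In Cdca8 the final letter of the CHR element is also the first letter of a CCAAT box read on the opposite strand, so both appear as 1 run of capitals. Positions count from the start, whose first base is 1. Cdc6 lies at chr11:98907901-98908200, forward strand. Dtl lies at chr1:191575495-191575794, reverse strand. Rfc3 lies at chr5:151651159-151651458, reverse strand. E2f8 lies at chr7:48881547-48881846, reverse strand. Cdk1 lies at chr10:69352863-69353162, reverse strand. Bub1 lies at chr2:127831810-127832109, reverse strand. Cdca8 lies at chr4:124936868-124937167, reverse strand.
Cdc6: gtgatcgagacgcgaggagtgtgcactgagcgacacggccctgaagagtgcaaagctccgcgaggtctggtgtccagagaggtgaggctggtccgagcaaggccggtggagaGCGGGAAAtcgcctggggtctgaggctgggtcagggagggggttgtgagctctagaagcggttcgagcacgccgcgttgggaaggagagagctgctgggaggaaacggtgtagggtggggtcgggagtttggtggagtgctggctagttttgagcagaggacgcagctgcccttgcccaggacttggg
Dtl: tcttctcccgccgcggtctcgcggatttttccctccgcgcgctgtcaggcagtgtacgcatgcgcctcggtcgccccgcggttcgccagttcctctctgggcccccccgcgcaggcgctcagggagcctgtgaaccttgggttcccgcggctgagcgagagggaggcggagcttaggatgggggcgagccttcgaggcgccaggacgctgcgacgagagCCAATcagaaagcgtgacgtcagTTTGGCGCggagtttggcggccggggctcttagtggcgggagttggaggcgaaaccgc
Rfc3: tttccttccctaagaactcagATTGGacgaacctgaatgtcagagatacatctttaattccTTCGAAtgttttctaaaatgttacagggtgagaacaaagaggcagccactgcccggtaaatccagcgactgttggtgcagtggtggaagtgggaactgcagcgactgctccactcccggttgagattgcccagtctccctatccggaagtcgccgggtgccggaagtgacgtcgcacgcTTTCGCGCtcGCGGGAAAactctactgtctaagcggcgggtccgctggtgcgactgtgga
E2f8: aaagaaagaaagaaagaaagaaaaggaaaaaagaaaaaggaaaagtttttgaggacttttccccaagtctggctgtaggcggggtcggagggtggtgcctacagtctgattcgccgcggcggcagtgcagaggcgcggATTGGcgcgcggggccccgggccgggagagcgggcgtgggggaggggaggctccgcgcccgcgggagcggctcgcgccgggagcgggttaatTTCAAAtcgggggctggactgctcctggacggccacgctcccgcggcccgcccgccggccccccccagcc
Cdk1: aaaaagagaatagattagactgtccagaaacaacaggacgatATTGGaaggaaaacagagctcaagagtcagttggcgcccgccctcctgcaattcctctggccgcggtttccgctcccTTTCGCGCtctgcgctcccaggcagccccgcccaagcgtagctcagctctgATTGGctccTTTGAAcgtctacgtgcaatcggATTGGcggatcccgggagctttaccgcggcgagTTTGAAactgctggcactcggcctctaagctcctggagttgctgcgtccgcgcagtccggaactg
Bub1: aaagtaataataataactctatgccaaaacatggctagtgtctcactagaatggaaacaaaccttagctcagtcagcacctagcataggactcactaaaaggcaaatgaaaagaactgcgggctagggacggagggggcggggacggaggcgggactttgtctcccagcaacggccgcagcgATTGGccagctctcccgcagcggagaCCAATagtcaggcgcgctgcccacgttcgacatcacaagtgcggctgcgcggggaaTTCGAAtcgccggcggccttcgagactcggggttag
Cdca8: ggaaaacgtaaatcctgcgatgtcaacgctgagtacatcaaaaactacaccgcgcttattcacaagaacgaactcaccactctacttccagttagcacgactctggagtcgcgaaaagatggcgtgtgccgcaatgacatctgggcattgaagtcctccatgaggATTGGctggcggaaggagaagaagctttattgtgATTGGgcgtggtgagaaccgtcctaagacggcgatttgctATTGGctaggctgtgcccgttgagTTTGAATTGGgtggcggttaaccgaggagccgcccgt

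In wild-type liver bezafibrate raised genes of every class. Of the 56 genes, 41 were called higher and none lower, against 9.89% of all genes called higher and 5.92% called lower. At an unadjusted p under 0.05 and with no minimum fold, limma found 45 higher and 1 lower, against 8403 of 18193 genes either way. The lower gene was Tpx2, whose brightest probe set gave -0.36 while its 3 other probe sets gave 0.21, 0.55 and 0.37. The median difference was 1.46 on the log2 scale, a 2.76-fold rise, against -0.02 over all genes. Differences ran from -0.45 for Tk1, the salvage kinase that phosphorylates thymidine, to 3.20 for Uhrf1, which guides maintenance DNA methylation. The treated and untreated mice did not overlap for 43 genes, all higher, against 24.4% of all genes apart in that direction.

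**Figure D1:**
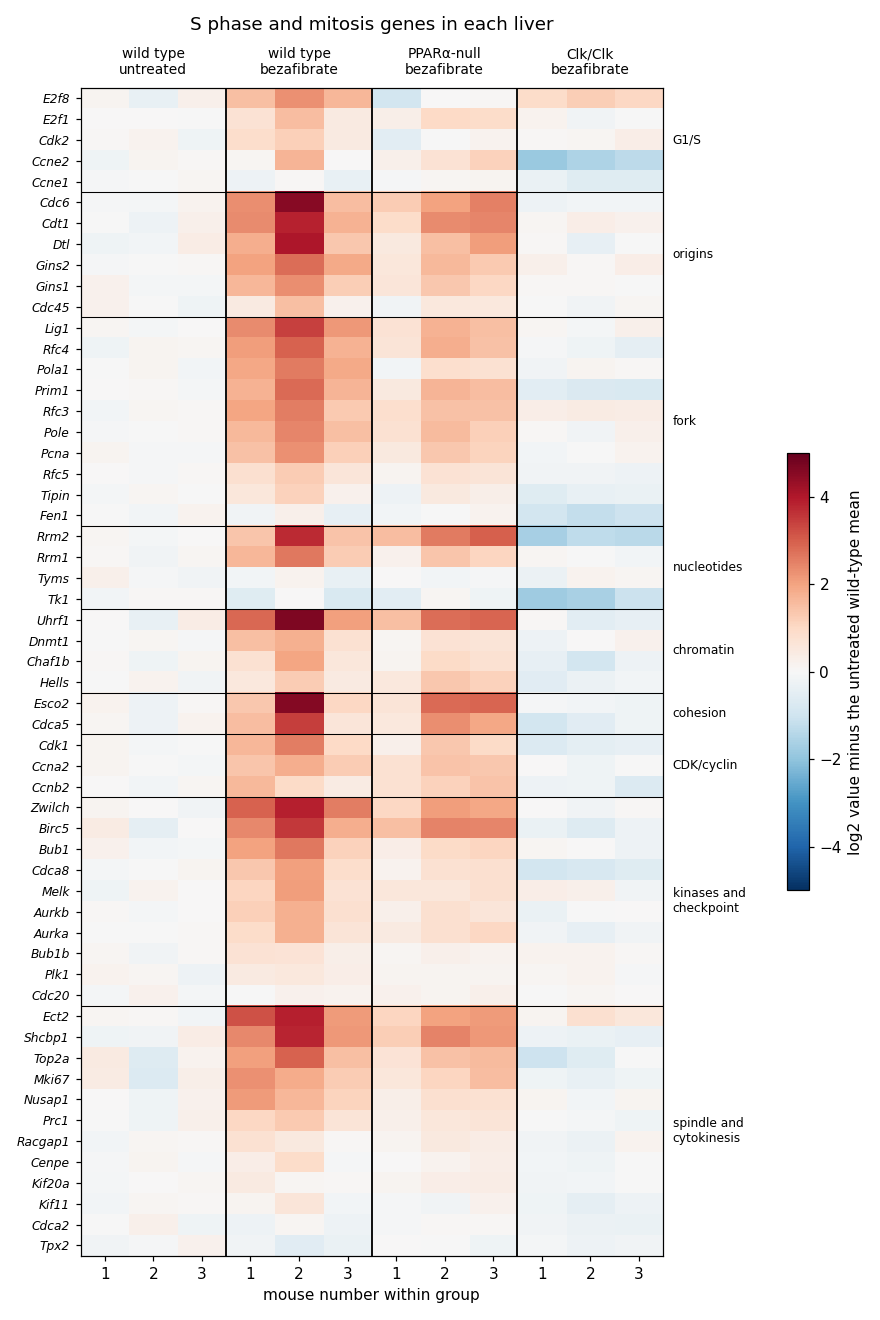
Distance of the log2 value from the mean of untreated wild type (colour) for the 56 measured genes (rows, by class and then by the bezafibrate difference) in each of the 12 livers (columns, 3 per group). Treated wild-type mouse 2 has the deepest colour for most genes, the null mice are intermediate and the Clk/Clk mice are mostly near the untreated level. In Clk/Clk mice E2f8 lies farthest above that level, and Ccne2, Tk1, Rrm2 and Fen1 lie farthest below it.

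The treated wild-type mice differed among themselves in the size of the rise. Measured from the untreated mean, the median over the 56 genes was 1.39 in mouse 1, 1.90 in mouse 2 and 0.84 in mouse 3. Mouse 2 was the highest of the 3 for 49 of the 56 genes and mouse 3 the lowest for 52. All 24 replication genes were highest in mouse 2. Among the 25 mitosis genes 18 were highest in mouse 2 and 7 in mouse 1, namely Ccnb2, Bub1b, Kif20a, Nusap1, Tpx2, Racgap1 and Mki67. Of the 41 drug calls 9 were lost in at least 1 of 20 alternative fits (Cdk2, E2f1, Tipin, Hells, Chaf1b, Cdca5, Esco2, Aurka and Top2a).

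Replication genes and mitosis genes both rose, and the median difference was larger for replication. Of 24 replication genes 20 were called higher, with a median difference of 1.86, and of 25 mitosis genes 16, with a median of 1.27. Without Ccna2, Cdk1, Melk, Top2a and Mki67, which act in or are expressed from S phase onwards as well, 11 of 20 mitosis genes were called and their median was 1.0. In each treated wild-type mouse the replication median exceeded the mitosis median, by 0.44, 0.71 and 0.55 on the log2 scale. The spread within mitosis was wide, since 9 genes (Plk1, Bub1b, Cdc20, Kif11, Kif20a, Tpx2, Cenpe, Racgap1 and Cdca2) were not called while Zwilch and Ect2 rose over 3 units. The gap between the classes leans in part on the choice of probe set, since 5 of these 9 mitosis genes (Bub1b, Cdc20, Kif11, Cenpe and Racgap1) had another probe set called higher, against 1 replication gene, Fen1. In the other direction, some called genes had other probe sets of which none was called. These were Gins1, Dtl, Pola1 and Chaf1b in replication and Aurka, Bub1, Nusap1 and Top2a in mitosis. With the mean of all probe sets of a gene the medians were 1.36 for replication and 1.0 for mitosis, with 20 and 17 genes called. The classes also differed in signal, with mean log2 levels in untreated mice of 6.41 to 6.50 for replication and 4.86 to 4.98 for mitosis. Under a filter at the 60th percentile, which 13 of the 25 mitosis genes passed, the medians were closer, at 1.86 and 1.74. The part of signal level in the gap was not tested, and no test over the classes was made.

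**Figure D2:**
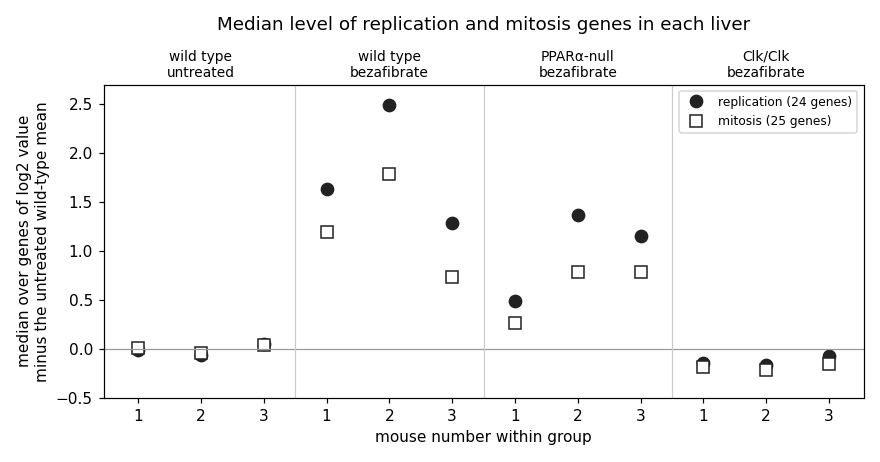
Median distance of the log2 value from the mean of untreated wild type over 24 replication genes (filled circles) and 25 mitosis genes (open squares) in each liver. Both medians lie above 0 in all treated wild-type and null mice, with the replication median higher in each, and both lie between -0.21 and -0.08 in the 3 Clk/Clk mice.

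In the null mice the median rise over untreated wild type was smaller. Against treated wild type 15 of 56 genes were called lower and none higher, with 6.22% of all genes called lower and 4.09% higher, and the median difference was -0.58 against 0.03 over all genes. At an unadjusted p under 0.05 limma found 27 lower and 1 higher, Tpx2, with 6788 of all 18193 genes in either direction. Differences ran from -2.10 for E2f8 to 0.28 for Tpx2, a spindle assembly factor that was not called. Against untreated wild type 21 genes were called higher in the null mice and none lower, with 2.94% of all genes called higher and 2.04% lower, and the median difference was 0.75. At an unadjusted p under 0.05 limma found 36 higher and 0 lower, with 5153 of all 18193 genes in either direction. Differences in that comparison ran from -0.28 for E2f8 to 2.41 for Uhrf1. Both comparisons involve the null arrays, and the first shares the treated wild-type arrays with the drug comparison.

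The count of genes lower in null mice rested on single animals. It was 8 without treated wild-type mouse 2, 25 without treated wild-type mouse 3 and 7 without null mouse 1. Null mouse 1 stood lowest of the 3 null mice for 51 of 56 genes, with a median of 0.30 from the untreated mean, against 0.96 and 0.99 in mice 2 and 3. The count of genes higher in null mice than in untreated mice fell from 21 to 11 without null mouse 2 and to 10 without null mouse 3. Of the 15 genes called lower, 5 (E2f8, Gins2, Pola1, Lig1 and Zwilch) kept the call in each of 20 alternative fits that gave them a value. Of the 15, 7 belonged to replication and 6 to mitosis, with median differences of -0.71 over replication genes and -0.43 over mitosis genes.

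In Clk/Clk mice most of these genes lay near the untreated level. Against treated wild type 42 of the 56 were called lower and none higher, with 5% of all genes called lower and 2.02% higher. At an unadjusted p under 0.05 limma found 52 lower and 0 higher, with 5760 of all 18193 genes in either direction. The median difference was -1.58, a 3.00-fold fall, against 0.03 over all genes. Differences ran from -3.61 for Rrm2, the inducible subunit of ribonucleotide reductase, to 0.17 for Tpx2. Of 24 replication genes 22 were called lower, with a median of -1.75, and of 25 mitosis genes 16, with a median of -1.37. The groups did not overlap for 49 of the 56 genes, all lower, against 16.9% of all genes apart in that direction and 19.6% apart in the other.

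Set against untreated wild type, 4 genes were lower in treated Clk/Clk mice (Ccne2, Fen1, Tk1 and Cdca8) and 1 was higher (E2f8), with 6.68% of all genes called lower and 8.12% higher. The median difference was -0.12, from -1.57 for Ccne2 to 1.06 for E2f8. The medians from the untreated mean were -0.14, -0.19 and -0.14 in the 3 Clk/Clk mice. A difference from untreated wild type in these mice joins the genotype and 5 days of the drug, since no untreated Clk/Clk mouse was measured. Against null mice on the same diet 33 genes were called lower in Clk/Clk mice and 1 higher (E2f8), with 5.87% of all genes called lower and 5.64% higher. The median there was -0.95, from -3.81 for Rrm2 to 1.34 for E2f8, and the count of lower genes was 21 without null mouse 2. For 10 of the 56 the null mice lay above and the Clk/Clk mice below every untreated mouse with Clk/Clk called lower than null, which held for 1.09% of all genes.

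**Figure D3:**
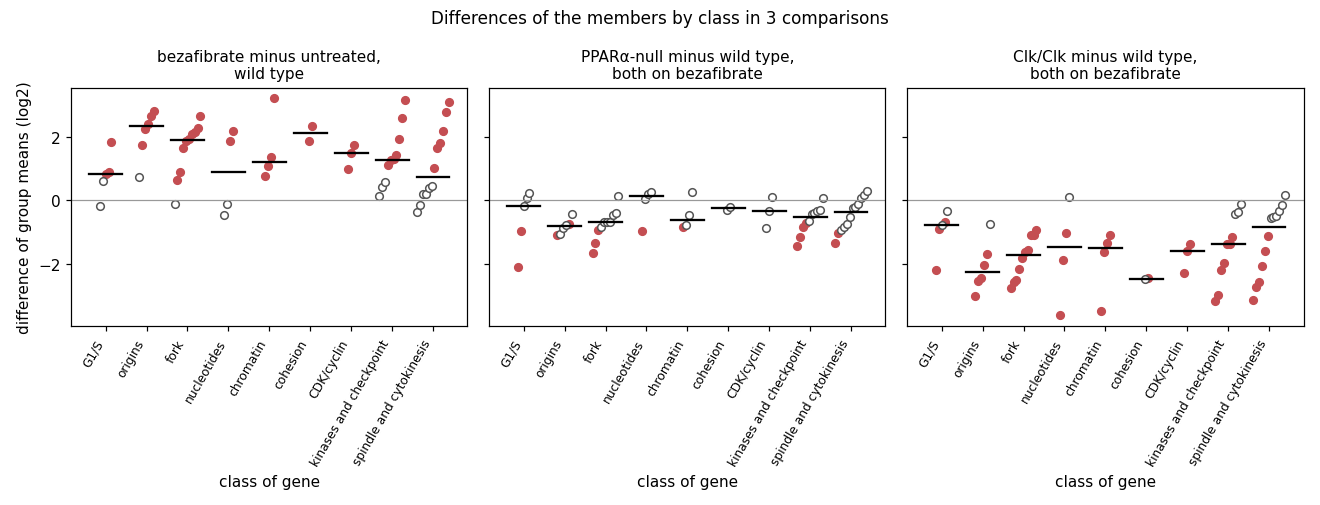
Difference of group means (log2) of each measured gene in 3 comparisons, by class. Filled red points passed the test, open points did not, and black bars are class medians. Points lie mostly above 0 with the drug in wild type and mostly below 0 in Clk/Clk against wild type, with smaller differences in null against wild type.

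Among the regulators of the G1 to S transition, 3 of 5 rose with the drug. E2f8, an E2F family repressor that restrains E2F target genes in S phase, read 7.31, 6.82 and 7.42 in untreated wild type, 8.69, 9.48 and 8.84 in treated wild type, 6.25, 7.21 and 7.25 in the null mice and 8.10, 8.42 and 8.20 in the Clk/Clk mice. Treated wild-type and Clk/Clk mice both lay above every untreated mouse, and no null mouse did. The drug difference was 1.82 (SE 0.27, adjusted p = 0.000214), and null mice were lower than treated wild type by -2.10 (SE 0.27, adjusted p = 0.000136). Clk/Clk mice stayed above untreated wild type by 1.06 (SE 0.27, adjusted p = 0.00894), and their difference from treated wild type, -0.76 (SE 0.27, adjusted p = 0.0722), was not called. It was the 1 gene of the 56 called higher in Clk/Clk than in null mice, by 1.34 (SE 0.27, adjusted p = 0.00275). Its window, shown above, holds a CHR element and a CCAAT box and no E2F motif of those searched.

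E2f1, an activator that opens S phase, read 6.14, 6.12 and 6.10 in untreated wild type, 6.84, 7.66 and 6.56 in treated wild type, 6.42, 7.13 and 7.02 in the null mice and 6.31, 5.95 and 6.11 in the Clk/Clk mice. It was higher in all 3 treated wild-type mice than in any untreated mouse, at 0.90 (SE 0.24, adjusted p = 0.012), and lower in Clk/Clk than in treated wild type at -0.90 (SE 0.24, adjusted p = 0.0252). Null mice differed from treated wild type by -0.16 (SE 0.24, adjusted p = 0.676) and overlapped them. Cdk2, the kinase that partners cyclins E and A, read 7.91, 8.02 and 7.62 in untreated wild type, 8.74, 9.03 and 8.30 in treated wild type, 7.33, 7.85 and 8.03 in the null mice and 7.91, 7.96 and 8.16 in the Clk/Clk mice. Its drug difference was 0.84 (SE 0.20, adjusted p = 0.00524), with null mice at -0.96 (SE 0.20, adjusted p = 0.00388) and Clk/Clk mice -0.68 (SE 0.20, adjusted p = 0.0341) away from treated wild type. The only other probe set of Cdk2, used when probe sets with a suffix for shared sequence were left out, had a mean of 2.71 and reached the 40th percentile on 0 of 12 arrays, so it gives no check of the brighter one.

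Neither cyclin E gene was called with the drug. Ccne2, which encodes cyclin E2, read 5.72, 6.09 and 5.99 in untreated wild type, 6.05, 7.64 and 5.97 in treated wild type, 6.19, 6.65 and 7.08 in the null mice and 4.09, 4.39 and 4.61 in the Clk/Clk mice. A single treated wild-type mouse, mouse 2, was high, and the difference was 0.62 (SE 0.37, adjusted p = 0.218). Clk/Clk mice lay below every other mouse, at -2.19 (SE 0.37, adjusted p = 0.00195) from treated and -1.57 (SE 0.37, adjusted p = 0.00543) from untreated wild type. The Clk/Clk signals of Ccne2 were under the 40th percentile of the arrays, so the size of these falls is uncertain. Ccne1, for cyclin E1, differed by -0.19 (SE 0.11, adjusted p = 0.226) with the drug and was called in no comparison. In Clk/Clk mice it stood at -0.52 (SE 0.11, adjusted p = 0.00355) from untreated and -0.56 (SE 0.11, adjusted p = 0.00276) from null mice, which fell short of 1.5-fold. The other probe set of Ccne1, also above the 40th percentile on all 12 arrays, gave -0.97 against treated wild type, -1.06 against untreated and -1.25 against null mice, with limma adjusted p of 0.00783, 0.00171 and 0.000749 over all probe sets with 1 symbol.

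Genes that license and fire replication origins rose together, with 5 of 6 called and a median of 2.32. Cdc6, which loads the MCM helicase on origins, read 3.35, 3.33 and 3.59 in untreated wild type, 5.74, 7.98 and 4.97 in treated wild type, 4.71, 5.42 and 5.96 in the null mice and 3.17, 3.28 and 3.29 in the Clk/Clk mice. Each treated wild-type and each null mouse was above all untreated mice, and the Clk/Clk mice were below them. The drug difference was 2.81 (SE 0.57, adjusted p = 0.00195), and Clk/Clk mice were -2.99 (SE 0.57, adjusted p = 0.00392) away from treated wild type. Null mice were higher than untreated mice by 1.94 (SE 0.57, adjusted p = 0.0391), and their difference from treated wild type, -0.87 (SE 0.57, adjusted p = 0.297), was not called. In its window above, the E2F motif begins at position -138.

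Cdt1, the partner of Cdc6 in licensing, read 6.16, 5.95 and 6.44 in untreated wild type, 8.56, 10.03 and 7.94 in treated wild type, 7.09, 8.54 and 8.61 in the null mice and 6.28, 6.51 and 6.39 in the Clk/Clk mice. It rose by 2.66 (SE 0.47, adjusted p = 0.000772) and was lower in Clk/Clk mice by -2.45 (SE 0.47, adjusted p = 0.00412), where the values lay close to the untreated ones. Dtl, which targets Cdt1 for destruction in S phase, read 3.78, 3.87 and 4.37 in untreated wild type, 5.84, 8.05 and 5.35 in treated wild type, 4.49, 5.51 and 6.09 in the null mice and 4.06, 3.61 and 3.99 in the Clk/Clk mice. Mouse 2 of treated wild type stood far above the others, and the drug difference was 2.41 (SE 0.57, adjusted p = 0.00538). Clk/Clk mice differed from treated wild type by -2.53 (SE 0.57, adjusted p = 0.00996) and from untreated mice by -0.12 (SE 0.57, adjusted p = 0.9). Gins1 and Gins2, subunits of the helicase cofactor GINS, rose by 1.73 and 2.24 and were the only genes of this class called lower in null mice, at -0.75 and -1.08. Cdc45, the third component of the helicase, was not called in any comparison and showed 0.72 (SE 0.29, adjusted p = 0.0665) with the drug.

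At the replication fork 9 of 10 genes rose and all 10 were called lower in Clk/Clk mice. Lig1, the ligase that joins Okazaki fragments, read 6.15, 5.95 and 6.06 in untreated wild type, 8.43, 9.47 and 8.22 in treated wild type, 6.78, 7.78 and 7.58 in the null mice and 6.15, 5.96 and 6.33 in the Clk/Clk mice. The null mice lay between untreated and treated wild type without overlap, and the Clk/Clk mice lay close to the untreated values. Its drug difference was 2.65 (SE 0.30, adjusted p = 2.49e-05), with -1.32 (SE 0.30, adjusted p = 0.00643) in null and -2.56 (SE 0.30, adjusted p = 0.000224) in Clk/Clk mice from treated wild type. Rfc4, a subunit of the clamp loader, read 6.23, 6.59 and 6.54 in untreated wild type, 8.53, 9.42 and 8.19 in treated wild type, 7.10, 8.27 and 7.93 in the null mice and 6.38, 6.26 and 6.02 in the Clk/Clk mice. It rose by 2.26 (SE 0.31, adjusted p = 0.00012) and was lower by -2.49 (SE 0.31, adjusted p = 0.000344) in Clk/Clk mice. Null mice overlapped treated wild type at -0.95 (SE 0.31, adjusted p = 0.0421).

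Pola1, the catalytic subunit of the polymerase that primes DNA synthesis, read 6.47, 6.63 and 6.37 in untreated wild type, 8.42, 9.10 and 8.40 in treated wild type, 6.34, 7.33 and 7.25 in the null mice and 6.33, 6.61 and 6.55 in the Clk/Clk mice. Null mouse 1 lay below every untreated mouse and null mice 2 and 3 above them. It rose by 2.15 (SE 0.24, adjusted p = 2.57e-05), and null mice were lower than treated wild type by -1.67 (SE 0.24, adjusted p = 0.000339), the largest fall of a replication gene in null mice. Clk/Clk mice differed from untreated wild type by 0.01 (SE 0.24, adjusted p = 0.991) and from treated wild type by -2.15 (SE 0.24, adjusted p = 0.000185).

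Of the other fork genes, Prim1, the primase subunit, rose by 2.08, Rfc3 by 1.94, Pole, the leading strand polymerase, by 1.86, Pcna, the sliding clamp, by 1.65, Rfc5 by 0.90 and Tipin, a fork protection factor, by 0.64. None of these 6 was called lower in null mice than in treated wild type, and in Clk/Clk mice their differences ran from -2.74 for Prim1 to -1.08 for Tipin. Fen1, the flap nuclease, was named after its values were seen because its brightest probe set did not move with the drug, at -0.12 (SE 0.16, adjusted p = 0.601). It read 9.91, 9.78 and 10.11 in untreated wild type, 9.75, 10.20 and 9.51 in treated wild type, 9.80, 9.93 and 10.10 in the null mice and 9.01, 8.75 and 8.89 in the Clk/Clk mice. All Clk/Clk values lay below those of the 9 other mice, -0.94 (SE 0.16, adjusted p = 0.00187) away from treated wild type. A second, dimmer probe set of Fen1 rose by 2.31 (SE 0.37, adjusted p = 0.000352 over all probe sets with 1 symbol) and was lower by -3.03 in Clk/Clk mice, so the 2 probe sets of this gene disagree on the drug.

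Nucleotide supply was divided. Rrm2 read 6.30, 6.09 and 6.20 in untreated wild type, 7.58, 9.94 and 7.64 in treated wild type, 7.75, 8.81 and 9.19 in the null mice and 4.54, 4.93 and 4.86 in the Clk/Clk mice. Null mice overlapped treated wild type, and every Clk/Clk mouse lay below every untreated one. The drug difference was 2.18 (SE 0.52, adjusted p = 0.00575), that of null mice from untreated wild type 2.39 (SE 0.52, adjusted p = 0.0101), and that of Clk/Clk from treated wild type -3.61 (SE 0.52, adjusted p = 0.000827), the largest fall of the 56 there. Other, dimmer probe sets of Rrm2 gave -3.00 and -1.29 for that fall (limma adjusted p = 0.00127 and 0.0967 over all probe sets with 1 symbol). Their Clk/Clk differences from untreated mice were -0.70 and -0.007 (adjusted p = 0.296 and 0.994). Both the size of the fall and the place below untreated mice thus turn on the probe set. Rrm1, the constant subunit of the same enzyme, read 7.48, 7.24 and 7.53 in untreated wild type, 9.07, 10.06 and 8.68 in treated wild type, 7.62, 8.81 and 8.5 in the null mice and 7.53, 7.38 and 7.26 in the Clk/Clk mice. It rose by 1.86 (SE 0.33, adjusted p = 0.000722), and Clk/Clk mice returned values among the untreated ones, -1.88 (SE 0.33, adjusted p = 0.00224) away from treated wild type.

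Tk1 read 9.02, 9.23 and 9.23 in untreated wild type, 8.55, 9.18 and 8.39 in treated wild type, 8.65, 9.26 and 8.96 in the null mice and 7.39, 7.54 and 8.09 in the Clk/Clk mice. It was not raised by the drug, at -0.45 (SE 0.22, adjusted p = 0.136), and the Clk/Clk mice lay below all others, at -1.04 (SE 0.22, adjusted p = 0.00779) from treated and -1.49 (SE 0.22, adjusted p = 0.000237) from untreated wild type. Tyms, thymidylate synthase, stayed under the 40th percentile on all 12 arrays and was called in no comparison.

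All 4 genes that restore chromatin behind the fork rose. Uhrf1 read 4.89, 4.47 and 5.22 in untreated wild type, 7.74, 9.51 and 6.92 in treated wild type, 6.36, 7.67 and 7.78 in the null mice and 4.94, 4.35 and 4.44 in the Clk/Clk mice. Every treated wild-type and null mouse was above the untreated mice, while the Clk/Clk mice lay within or just below the untreated range. The drug difference was 3.20 (SE 0.54, adjusted p = 0.000566), null mice were above untreated mice by 2.41 (SE 0.54, adjusted p = 0.0114), and Clk/Clk mice were below treated wild type by -3.48 (SE 0.54, adjusted p = 0.00122). Dnmt1, the maintenance DNA methyltransferase that Uhrf1 recruits, read 7.75, 7.87 and 7.75 in untreated wild type, 9.28, 9.58 and 8.55 in treated wild type, 7.90, 8.52 and 8.44 in the null mice and 7.54, 7.82 and 8.0 in the Clk/Clk mice. It rose by 1.35 (SE 0.23, adjusted p = 0.000618), with -0.85 (SE 0.23, adjusted p = 0.0179) in null and -1.35 (SE 0.23, adjusted p = 0.00213) in Clk/Clk mice from treated wild type.

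Chaf1b, a subunit of the chromatin assembly factor, read 5.63, 5.36 and 5.70 in untreated wild type, 6.33, 7.52 and 6.11 in treated wild type, 5.69, 6.53 and 6.31 in the null mice and 5.15, 4.66 and 5.32 in the Clk/Clk mice. Treated wild type was above and Clk/Clk below the untreated mice, by 1.09 (SE 0.32, adjusted p = 0.019) with the drug and -1.61 (SE 0.32, adjusted p = 0.00539) for Clk/Clk against treated wild type. For Chaf1b a dimmer probe set, at or above the 40th percentile on 9 of 12 arrays, gave 0.07 and 0.20 in these comparisons, neither called. Hells, a chromatin remodeller, rose by 0.75 (SE 0.23, adjusted p = 0.023) and was the 1 chromatin gene with a null mean above treated wild type, by 0.26, which was not called. Another, dimmer probe set of Hells rose by 3.99 and gave -1.21 in null mice from treated wild type (adjusted p = 0.0669 over all probe sets with 1 symbol), so that both the size of the rise and the direction in null mice turn on the probe set.

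Both cohesion genes rose, with large differences between mice. Esco2, which acetylates cohesin during S phase, read 3.09, 2.62 and 2.97 in untreated wild type, 4.24, 7.50 and 3.94 in treated wild type, 3.52, 5.72 and 5.81 in the null mice and 2.83, 2.74 and 2.67 in the Clk/Clk mice. Treated mouse 2 exceeded mouse 3 of its group by over 3 units. Its difference with the drug was 2.33 (SE 0.80, adjusted p = 0.0364), and that of Clk/Clk mice, -2.48 (SE 0.80, adjusted p = 0.0503), just missed the threshold. Cdca5, which protects cohesin until mitosis, read 4.57, 4.22 and 4.64 in untreated wild type, 6.01, 7.95 and 5.10 in treated wild type, 4.99, 6.81 and 6.39 in the null mice and 3.56, 3.90 and 4.27 in the Clk/Clk mice. It rose by 1.88 (SE 0.60, adjusted p = 0.0274) and was lower in Clk/Clk mice by -2.44 (SE 0.60, adjusted p = 0.0155). Both drug calls were lost without treated mouse 2, when Esco2 differed by 1.19 and Cdca5 by 1.08. In null mice neither gene was called, at -0.21 and -0.29 from treated wild type.

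The 3 measured genes of the mitotic CDK and its cyclins rose. Cdk1, the kinase that drives entry into mitosis, read 7.14, 6.89 and 6.98 in untreated wild type, 8.65, 9.58 and 8.0 in treated wild type, 7.27, 8.35 and 7.96 in the null mice and 6.31, 6.52 and 6.58 in the Clk/Clk mice. Every null mouse lay above and every Clk/Clk mouse below the untreated mice. It rose by 1.74 (SE 0.33, adjusted p = 0.00133) and was lower in Clk/Clk mice by -2.27 (SE 0.33, adjusted p = 0.000859), and the difference of Clk/Clk from null mice was -1.39 (SE 0.33, adjusted p = 0.00792). Its window was the only mitosis window with an E2F motif, beside 2 CHR elements and 3 CCAAT boxes.

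Ccna2, for cyclin A2 of S phase and early mitosis, read 5.95, 5.79 and 5.75 in untreated wild type, 7.23, 7.65 and 7.10 in treated wild type, 6.57, 7.25 and 7.18 in the null mice and 5.86, 5.60 and 5.80 in the Clk/Clk mice. Its groups were tight, with a drug difference of 1.5 (SE 0.18, adjusted p = 3.5e-05) and a Clk/Clk difference of -1.57 (SE 0.18, adjusted p = 0.000171). Null mice were raised over untreated mice by 1.17 (SE 0.18, adjusted p = 0.00113) and not called against treated wild type. Ccnb2, for cyclin B2, read 5.05, 4.88 and 5.13 in untreated wild type, 6.63, 5.98 and 5.43 in treated wild type, 5.76, 6.17 and 6.45 in the null mice and 4.76, 4.82 and 4.33 in the Clk/Clk mice. It was highest in treated mouse 1, not mouse 2, rose by 0.99 (SE 0.26, adjusted p = 0.00897), and in null mice its mean stood 0.11 above treated wild type, which was not called. Clk/Clk mice were lower than treated wild type by -1.38 (SE 0.26, adjusted p = 0.00354).

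Of 10 mitotic kinases and checkpoint genes 7 rose. Zwilch, part of the complex that holds the spindle checkpoint at kinetochores, read 3.93, 3.80 and 3.62 in untreated wild type, 6.71, 7.68 and 6.36 in treated wild type, 4.82, 5.88 and 5.72 in the null mice and 3.80, 3.59 and 3.84 in the Clk/Clk mice. The null mice lay between the untreated and treated wild-type values with no overlap, and the Clk/Clk mice lay close to the untreated ones. The rise was 3.14 (SE 0.31, adjusted p = 9.14e-06), with -1.44 (SE 0.31, adjusted p = 0.00495) in null and -3.17 (SE 0.31, adjusted p = 8.04e-05) in Clk/Clk mice. Birc5, the survivin of the chromosomal passenger complex, read 4.83, 4.0 and 4.47 in untreated wild type, 6.83, 7.96 and 6.26 in treated wild type, 5.96, 6.91 and 6.89 in the null mice and 4.10, 3.81 and 4.19 in the Clk/Clk mice. It rose by 2.58 (SE 0.38, adjusted p = 0.000198), null mice were above untreated mice by 2.15 (SE 0.38, adjusted p = 0.00311), and Clk/Clk mice were below treated wild type by -2.98 (SE 0.38, adjusted p = 0.000379).

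Bub1, a spindle checkpoint kinase, read 3.35, 3.00 and 3.01 in untreated wild type, 5.13, 5.78 and 4.27 in treated wild type, 3.46, 4.07 and 4.17 in the null mice and 3.23, 3.13 and 2.88 in the Clk/Clk mice. Untreated and Clk/Clk values lay under the 40th percentile of the arrays, and only treated mice 1 and 2 reached it. Its rise with the drug was 1.94 (SE 0.30, adjusted p = 0.000304), with -1.16 (SE 0.30, adjusted p = 0.0143) in null and -1.98 (SE 0.30, adjusted p = 0.00108) in Clk/Clk mice. Aurka, Aurkb, Cdca8 (Borealin) and Melk rose by 1.12, 1.27, 1.43 and 1.30, and each was called lower in Clk/Clk mice. Cdca8 was also lower in Clk/Clk than in untreated mice, at -0.77 (SE 0.25, adjusted p = 0.0302), and its window above holds a CHR element that begins at position 14.

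Plk1, Bub1b and Cdc20 were not called. Plk1, the mitotic polo kinase, and Bub1b, a checkpoint protein, had adjusted p under the threshold with the drug but changes below 1.5-fold, at 0.43 (SE 0.11, adjusted p = 0.00607) and 0.57 (SE 0.12, adjusted p = 0.00224). Cdc20, the activator of the anaphase-promoting complex, was examined after its values were seen because its probe sets disagreed. Its brightest probe set gave 0.14 (SE 0.09, adjusted p = 0.293), and 2 dimmer ones rose by 1.05 (SE 0.21, adjusted p = 0.00208) and 2.14 (SE 0.35, adjusted p = 0.000486). Among the 15 genes not called with the drug, 6 (Bub1b, Cdc20, Cenpe, Fen1, Kif11 and Racgap1) had another probe set that rose by at least 1.5-fold at an adjusted p under 0.05. In the other direction, Cdk2, E2f8, Gins1, Dtl, Pola1, Chaf1b, Cdca5, Aurka, Bub1, Nusap1 and Top2a were called higher, but none of their other probe sets was. Among those other probe sets, 1 of Top2a reached the 40th percentile on all 12 arrays and that of Chaf1b on 9. The rest reached it on at most 2 arrays. The place of the probe sets on the transcripts was not analysed here.

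Of 12 spindle and cytokinesis genes 6 rose. Ect2, the exchange factor that starts cytokinesis, read 4.63, 4.58 and 4.41 in untreated wild type, 7.73, 8.44 and 6.66 in treated wild type, 5.60, 6.56 and 6.65 in the null mice and 4.67, 5.33 and 5.10 in the Clk/Clk mice. Every treated mouse of wild type or null genotype was above the untreated mice, and so were the Clk/Clk mice, by less. The drug difference was 3.07 (SE 0.38, adjusted p = 5.2e-05), with -1.34 (SE 0.38, adjusted p = 0.0217) in null and -2.58 (SE 0.38, adjusted p = 0.000888) in Clk/Clk mice from treated wild type. Shcbp1, a midbody protein, read 4.04, 4.09 and 4.64 in untreated wild type, 6.67, 8.05 and 6.41 in treated wild type, 5.48, 6.75 and 6.41 in the null mice and 3.99, 3.91 and 3.86 in the Clk/Clk mice. It rose by 2.79 (SE 0.39, adjusted p = 0.000131), null mice were above untreated mice by 1.96 (SE 0.39, adjusted p = 0.00579), and Clk/Clk mice were below treated wild type by -3.12 (SE 0.39, adjusted p = 0.000338).

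Top2a, the topoisomerase that separates sister chromatids, read 5.60, 4.52 and 5.34 in untreated wild type, 7.19, 8.08 and 6.67 in treated wild type, 5.82, 6.60 and 6.72 in the null mice and 4.12, 4.56 and 5.14 in the Clk/Clk mice. Untreated mouse 2 was lower than its group, and the drug difference was 2.16 (SE 0.39, adjusted p = 0.000857), with -2.71 (SE 0.39, adjusted p = 0.000781) in Clk/Clk mice from treated wild type. For Top2a a dimmer probe set, at or above the 40th percentile on all 12 arrays, gave 0.10 and -0.29 in these comparisons, neither called. Mki67, the Ki-67 proliferation marker, rose by 1.79, Nusap1, a spindle protein, by 1.64 and Prc1, the midzone bundler, by 1.01, and all 3 were called lower in Clk/Clk mice. Of this class only Nusap1 and Ect2 were called lower in null mice. Kif11, Kif20a, Tpx2, Cenpe, Racgap1 and Cdca2 were called in no comparison, with drug differences from -0.36 to 0.45.

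**Figure D4:**
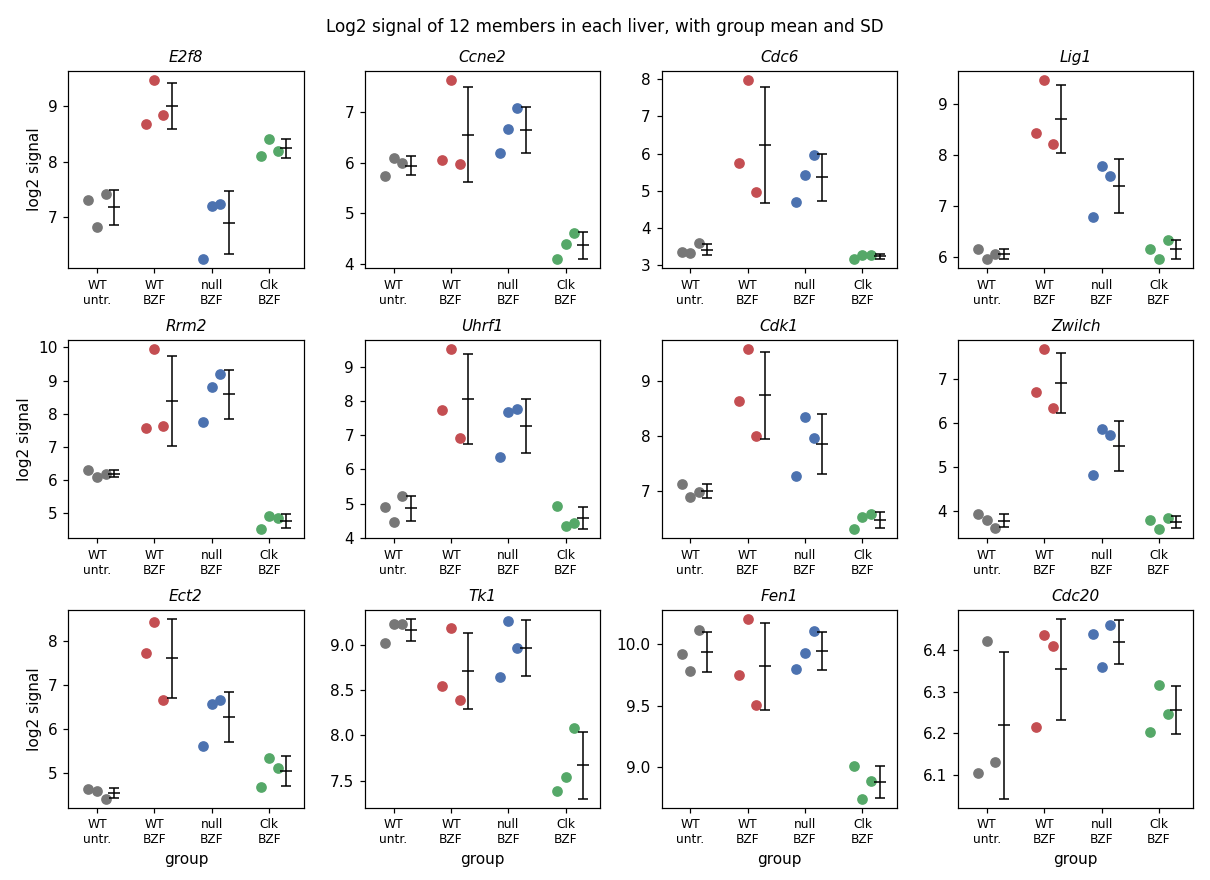
Log2 signal of 12 genes in each liver (points, 3 mice per group), with the mean and SD of each group in black; each panel has its own scale, which does not start at 0. E2f8 stays high in Clk/Clk mice, while Ccne2, Cdc6, Rrm2, Cdk1, Tk1 and Fen1 lie below the untreated mice there.

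Set beside the promoter windows, the 11 measured genes with an E2F motif were Cdk2, Cdc6, Cdt1, Dtl, Rfc3, Pola1, Lig1, Uhrf1, Dnmt1, Hells and Cdk1. A gene counted as having a motif if any of its windows held it. Lig1, Uhrf1 and Dnmt1 also had windows without an E2F motif. All 11 were called higher with the drug and lower in Clk/Clk mice, with medians of 2.15 and -2.27. Of the 32 measured genes whose windows lacked one, 21 were called higher with the drug and 22 lower in Clk/Clk mice, with medians of 1.10 and -1.26. The 20 genes with a CHR element had medians of 1.23 with the drug and -1.36 in Clk/Clk mice, and the 23 without one 1.65 and -1.63. These are descriptions of the matched genes, with no test, and motif and class overlap. Both comparisons use the same treated wild-type arrays, so the rise and the fall are not independent.

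Other genes of the cycle were read from lists of the same pathways. For these counts the shares over all genes were 9.89% higher and 5.92% lower with the drug, and 5% lower in Clk/Clk mice. Of 38 measured replication genes outside the 57, 25 were called higher with the drug and 1 lower, and 25 were lower in Clk/Clk mice. Mcm2 and Mcm5, subunits of the MCM helicase, rose by 2.83 (SE 0.32, adjusted p = 2.62e-05) and 3.87 (SE 0.44, adjusted p = 2.47e-05). Mcm5 was lower in Clk/Clk mice by -4.28 (SE 0.44, adjusted p = 9.89e-05). Dut, which clears dUTP, rose by 1.92, the GINS subunit Gins4 by 0.92 and the origin subunit Orc3 by 0.82. Mcm10 went the other way, from 11.41, 11.36 and 11.46 in untreated to 8.24, 8.74 and 7.50 in treated wild type, -3.25 (SE 0.23, adjusted p = 7.22e-07).

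Of 40 mitosis genes outside the 57, 20 rose with the drug and 22 were lower in Clk/Clk mice. Mad2l1, the checkpoint effector, rose by 2.59 (SE 0.31, adjusted p = 3.95e-05), Nek2, a centrosome kinase, by 2.19, Pttg1, the securin, by 1.34 and Incenp, a passenger protein, by 1.13. Foxm1, a transcription factor of mitotic genes, differed by 0.14 (SE 0.10, adjusted p = 0.304). Wee1, which holds Cdk1 inactive and is a known target of CLOCK, was below 1.5-fold with the drug at 0.55 (SE 0.18, adjusted p = 0.0315) and was lower in Clk/Clk mice by -1.23 (SE 0.18, adjusted p = 0.000926). Spc25, named after its values were seen, had the largest rise of these 40, 3.09 (SE 0.46, adjusted p = 0.000209). It was lower in null mice than in treated wild type by -3.30 (adjusted p = 0.000232). Like E2f8, it was higher in Clk/Clk mice than in untreated wild type, by 1.94 (adjusted p = 0.00556), and than in null mice, by 2.15 (adjusted p = 0.00382). Its Clk/Clk difference from treated wild type, -1.15 (adjusted p = 0.105), was not called.

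Of 23 other genes of the G1 to S transition 6 rose and 2 fell with the drug. Ccnd1, for cyclin D1, read 8.07, 9.06 and 8.36 in untreated and 11.69, 11.80 and 11.49 in treated wild type, 3.16 (SE 0.23, adjusted p = 8.24e-07), and was lower in null mice by -2.21 and in Clk/Clk mice by -2.28. Rbl1, a retinoblastoma relative, rose by 2.48 and Cdk4, the partner of cyclin D1, by 0.82. Cdkn1a, for the CDK inhibitor p21, rose by 2.46 (SE 0.28, adjusted p = 2.74e-05) and did not differ detectably between Clk/Clk and wild type on the drug, at 0.05 (SE 0.28, adjusted p = 0.928).

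Markers of the other cells of the liver were read on the same arrays. Over all genes 9.89% were called higher and 5.92% lower with the drug. Against treated wild type 4.09% were called higher and 6.22% lower in null mice, and 2.02% and 5% in Clk/Clk mice. Of 10 macrophage markers 1 was called higher with the drug, 3 lower in null and 3 lower in Clk/Clk mice against treated wild type. Their mean log2 level per mouse ranged from 8.83 to 9.06 in untreated wild type, 8.89 to 9.50 in treated wild type, 8.81 to 8.99 in null and 8.44 to 8.77 in Clk/Clk mice, and was highest in treated mouse 1. At an unadjusted limma p under 0.05, 3 macrophage markers were higher and 0 lower with the drug. Against treated wild type 1 was higher and 4 lower in null mice, and 0 higher and 8 lower in Clk/Clk mice. In either direction 8403, 6788 and 5760 of 18193 genes passed in these 3 comparisons. None of 8 lymphocyte markers was called in these comparisons. At an unadjusted limma p under 0.05 the drug comparison held 1 higher and 2 lower, with 8403 of 18193 genes in either direction. Of 8 erythroid markers, 5 of them under the 40th percentile on every array, 1 was lower with the drug and 1 lower in Clk/Clk mice. Of 10 endothelial markers 2 (Stab2 and Clec4g) were lower with the drug and 1 (Stab2) was higher in null mice, with mean levels of 8.27 to 8.30 in untreated wild type, 7.88 to 8.18 in treated wild type, 8.21 to 8.28 in null and 8.01 to 8.12 in Clk/Clk mice. Of 10 stellate cell markers 3 (Reln, Hand2 and Rgs5) were lower with the drug, 1 (Lrat) lower in null and 1 (Col3a1) lower in Clk/Clk mice, with mean levels of 8.33 to 8.48, 8.11 to 8.19, 8.02 to 8.24 and 8.12 to 8.16 in the same order of groups.

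Of 6 cholangiocyte markers 3 (Sox9, Cldn7 and Krt23) were higher with the drug, 3 lower in null and 1 (Cldn7) lower in Clk/Clk mice. Their mean levels of 5.32 to 5.41, 6.19 to 6.27, 5.48 to 5.55 and 6.08 to 6.25 in that order of groups were carried by Krt23, which rose by 4.09, while 3 of the 6 lay below 0 with the drug. Without Krt23 the means were 5.32 to 5.44, 5.52 to 5.71, 5.49 to 5.57 and 5.34 to 5.49. Of 8 hepatocyte markers 3 (Cps1, Tat and Hnf4a) were lower with the drug, 2 (Cps1 and Tat) were higher in null and 1 (Cps1) higher in Clk/Clk mice than in treated wild type. Their mean levels were 14.08 to 14.16 in untreated wild type, 13.47 to 13.61 in treated wild type, 13.83 to 13.97 in null and 13.70 to 13.81 in Clk/Clk mice. The part of these cell types in the differences above was not tested.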

How the data were processed

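Livers of 12 mice were profiled on Affymetrix arrays, 3 per group. The authors deposited log2 signals per probe set, made with RMA (background correction, equalisation of arrays and summary of probes) per the submitters' processing notes; settings are not given in the sources used here. RMA compresses low signals, so differences of dim genes can be understated. On arrays the number of mice limits precision. Of 45101 probe sets 64 were controls, and 34945 had 1 gene symbol, 932 several and 9160 none. The brightest probe set stood for a gene, giving 18193 genes, with no filter on level. The 4 group means were fitted by lmFit and eBayes (limma 3.58.1, R 4.3.3), and 6 contrasts were read. Calls needed a Benjamini-Hochberg adjusted p under 0.05 and 1.5-fold; SE is limma's. Fits were tested on simulated data. The members, gene lists and alternatives were chosen with earlier results of these data known. Per class, every mouse's value is given for the 3 called members with the largest drug difference, as well as for members called against their class. Of other cycle lists the 4 smallest adjusted p for the drug are named, and always Ccnd1, Cdkn1a, Foxm1, Wee1, Mcm5 and Mcm2. Members with extreme differences are named as well. Promoter windows were searched by exact match, in Python 3.11.15. Alternatives changed the probe set rule, filter, normalization, weights, moderation, fold and replicate block, and left out each array. The replicate numbers share no source in the labels.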

Additional observations from a re-analysis of the deposited data

Results flagged for a closer look

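For 10 genes the 3 null mice lay above and the 3 Clk/Clk mice below every untreated wild-type mouse and the Clk/Clk mice were called lower than the null mice by limma. The same held for 199 of all 18193 genes (1.09%). The difference of Clk/Clk from null mice was -2.28 for Ccne2, -2.12 for Cdc6, -0.69 for Rfc5, -1.89 for Prim1 and -3.81 for Rrm2 on the log2 scale. It was -1.49 for Ccnb2, -1.39 for Cdk1, -1.03 for Aurka, -1.34 for Cdca8 and -2.29 for Shcbp1. Of the 10, 4 belong to replication and 5 to mitosis. Against untreated wild type Ccne2 and Cdca8 were called lower in Clk/Clk mice, and Cdc6, Prim1, Rrm2, Ccnb2, Aurka and Shcbp1 were called higher in null mice. None of the 10 was called in both comparisons with untreated mice, and Rfc5 and Cdk1 were called in neither. For Cdc6 the Clk/Clk difference from untreated mice was -0.18, at signals under the 40th percentile of the arrays in both groups. The Clk/Clk signals of Ccne2, Ccnb2, Aurka and Shcbp1 also lay under that level. Other probe sets of Rrm2 gave -0.70 and -0.007 for Clk/Clk against untreated mice, and neither was called. Neither mutant was measured without the drug.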

How the results depend on the processing

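Counts of called genes with the drug in wild type and in Clk/Clk against wild type stayed within 1.5 times under all alternatives run, and 32 of 41 and 36 of 42 calls held in each of 20 alternative fits that gave the gene a value. In null against treated wild type 5 of 15 held, in null against untreated 9 of 21, in Clk/Clk against untreated 4 of 5 and in Clk/Clk against null 18 of 34. The number lower in null than in treated wild type, 15, was 9 with the mean of all probe sets and 8 at 2-fold. Its replication part, 7, was 4 after quantile normalization, 4 with trend and robust moderation and 3 at 2-fold. Its mitosis part, 6, was 3 with the mean of all probe sets, 3 without suffix probe sets and 3 with a filter at the 60th percentile. With single arrays left out these counts ran from 7 to 25, 3 to 12 and 2 to 11. Likewise the count higher in null than in untreated mice ran from 10 to 31, and that lower in Clk/Clk than in null mice from 21 to 41. Single-array ranges of the others were 35 to 45 and 40 to 47 for the drug and Clk/Clk counts. Without suffix probe sets Cdk2 gave -0.047 with the drug and 0.0789 in null mice, from a probe set under the 40th percentile on every array that cannot show a change, Incenp 0.00378 in Clk/Clk against treated wild type and Dut -0.16 in Clk/Clk against untreated mice. Replicate numbers did not pair mice: deviations of same-numbered mice correlated at -0.08 to 0.10, and with the replicate block the drug comparison called 2879 genes against 2877 without, with 41 members higher. A gene can pass the filter at the 60th percentile through 1 group alone, and 13 of 25 mitosis genes passed it. With that filter the replication and mitosis medians were 1.86 and 1.74 with the drug and -1.69 and -2.20 in Clk/Clk mice. The gap between the classes thus narrowed with the drug, and their order turned in Clk/Clk mice. Weak signal limits the 13 drug calls whose untreated signals lay under the 40th percentile, Cdc6 and Zwilch among them. Likewise it limits the 13 of 42 calls lower in Clk/Clk than in treated wild type whose Clk/Clk signals lay under that level.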
